A study of Danio rerio with 2 samples.

Results

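The genes described here are 10 mitotic genes of the zebrafish, namely the cyclins ccnb1, ccnb2 and ccna2, the kinases cdk1, plk1, aurkb and ttk, and the spindle and mitotic exit genes dlgap5, cdc20 and bub3. They were chosen by name, as probes whose gene name or description carries one of these symbols. The array held 16 probes for them, out of 21495 gene probes for 17985 genes or transcripts. Of these, 12 probes for 7 genes carried the symbol itself, with cdk1 under its older name cdc2. The other 4 probes, for 3 genes, carried older names and were matched by RefSeq accession. These are aurkb (stka in the files), ttk (mps1) and dlgap5 (zgc:92146). All 16 probes passed the filter on dim spots and were well above background in both genotypes on both arrays, and none was saturated.

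Entry into mitosis is driven by Cdk1, a kinase that is active only when bound to a cyclin of the A or B type. Polo-like kinase 1 and Aurora B act beside it on the spindle and the chromosomes, and the spindle checkpoint, of which Ttk and Bub3 are components, holds back the anaphase-promoting complex and its activator Cdc20 until chromosomes are attached. In cycling vertebrate cells most of these transcripts accumulate in G2 and M, so in whole-embryo RNA they are known as markers of dividing cells.

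The tested embryos were homozygous for the bw41c allele of gnl2, which encodes a nucleolar GTPase, and came from crosses of heterozygous carriers. The other genotype was wild type, from the TL strain, and the labels do not describe these embryos as siblings of the mutants. Both were collected at 22 hours post-fertilization (hpf), and each RNA extract came from a pool of 40 whole embryos. Mutant RNA carried the Cy5 dye (red) on array 1 and Cy3 (green) on array 2, with wild-type RNA in the other channel of the same array. Every value therefore rests on n = 2 arrays, which limits the precision, and array, replicate and dye orientation cannot be told apart. The submitters' design text speaks of 2 biological replicates with a dye swap. Both array titles carry the same number, and the labels do not tie the arrays to separate extracts, so the spread between them may be technical only.

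Median spot signals were 482 and 204 for mutant RNA on arrays 1 and 2, against 243 and 305 for wild-type RNA. The single gnl2 probe had log2 ratios of -0.99 and -2.27, and its mean of -1.63 was the lowest of the 19284 probes tested. Where the lesion lies relative to this probe is not given in the labels, and what lowers its signal was not tested. Markers of neural tissue, muscle, blood, notochord and epidermis were present, with 58 of 60 marker genes on the array passing the filter. Across the 19284 probes tested, the mutant over wild-type ratios of the arrays correlated negatively (Pearson r = -0.149 over probes, which are not independent replicates).

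None of the mitotic genes passed the test between gnl2 mutants and wild type. At the brightest probe of each gene, 10 of 10 had a log2 ratio of mutant over wild type below 0 on both arrays, against 20.3% of all genes tested. With median centring in place of loess, a curve fitted through the ratios along intensity, 5 of 10 were below 0 on both arrays (ccnb1, ccnb2, plk1, ttk and dlgap5) and the others were split, above 0 on array 1 and below 0 on array 2, while 13.5% of all genes tested were below 0 on both. The median log2 ratio over the 10 genes was -0.29, and single genes lay between -0.43 for ccnb1 and -0.09 for bub3, or 74.4% to 93.9% of the wild-type level. Over all genes tested the median was 0.002. In limma, with Benjamini-Hochberg adjustment over all 19284 probes, all 16 probes had an adjusted p of 1.00, so 0 passed 0.05, as for the whole array (0 of 19284 probes, 0%). At an unadjusted p under 0.05, 5 of the 10 genes were lower and 0 higher, against 1.22% and 1.96% of all genes tested. Over the 16 probes the same threshold gave 6 lower and 1 higher, against 1.24% and 2.03% of all probes tested. The genes were chosen with earlier results of these arrays known, so these counts describe them and do not test them. In RNA of whole embryos, fewer dividing cells and less of these transcripts per cell cannot be told apart.

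Signals are given below as normalised intensity, scaled so that the arrays share 1 distribution of mean brightness. They compare genotypes at 1 probe, not genes with each other. The mutant signals of both arrays lay below the wild-type signals of both arrays for 7 of the 10 genes, against 4.55% of all genes tested. The reverse order held for 0 of the 10, against 5.07% of all genes tested. For the other 3, ccna2, cdk1 and bub3, the genotypes overlapped. These counts rest on loess. With median centring aurkb (0.11) and cdc20 (0.13) had log2 ratios above 0 on array 1, so their genotypes would overlap as well.

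**Figure D1:**
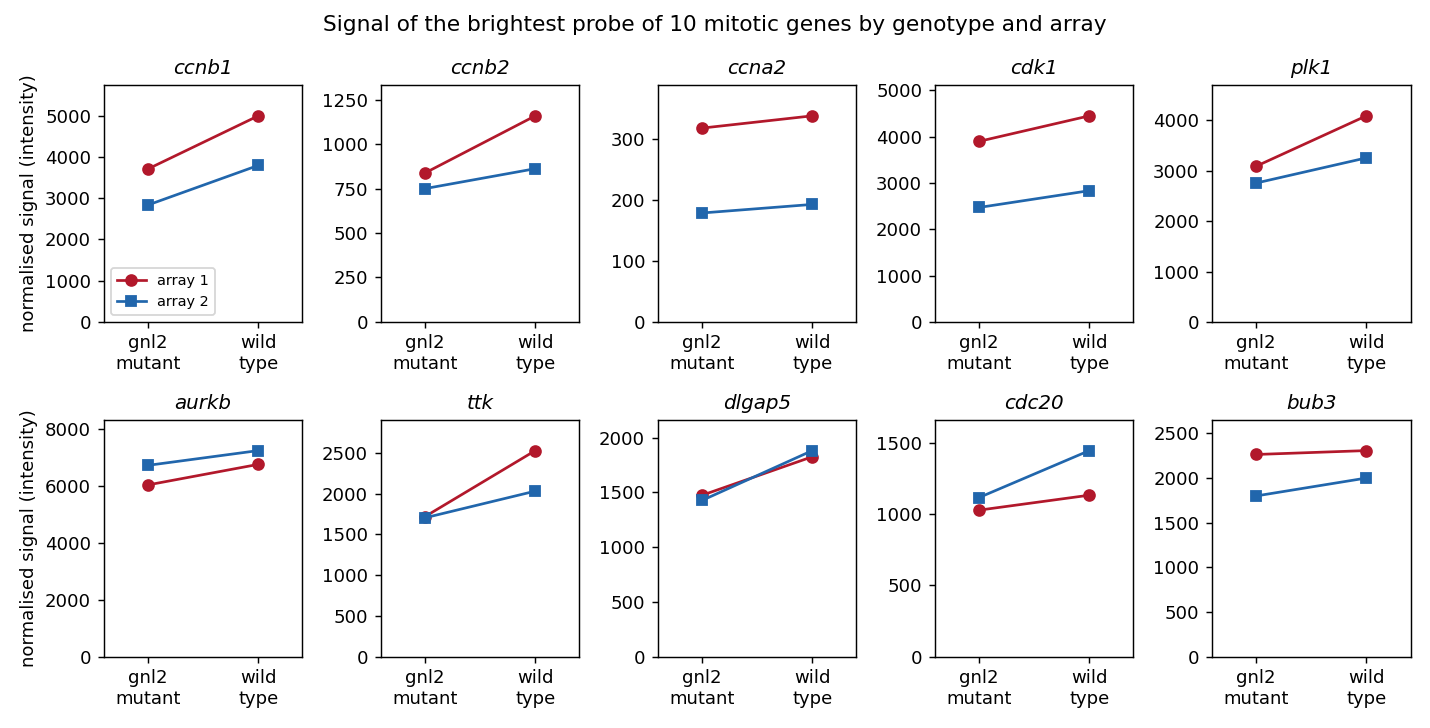
Normalised signal (linear intensity, axes from 0) of the brightest probe of each of the 10 mitotic genes, with gnl2 mutant left of wild type. Each line joins the values of 1 array (red circles for array 1, blue squares for array 2). With loess all 20 lines lie lower at the mutant end, while 5 of the 10 genes were split with median centring.

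The cyclin B1 gene ccnb1 encodes the main partner of Cdk1 in mitosis and was measured by 3 probes that did not give 1 direction. The brightest probe (A_15_P106239, record NM_131513) had signals of 3705 and 2832 in mutants on arrays 1 and 2, against 4994 and 3792 in wild type. The genotypes did not overlap. On the log2 scale the ratios were -0.43 and -0.42 (-0.15 and -0.62 with median centring), averaging -0.43 ± 0.006 (SD, n = 2), and limma gave a 95% interval of -0.67 to -0.18. This was the only probe of the 10 genes that was lower at a p under 0.01 on both arrays by the scanner software's own test within an array, as were 0.181% of all probes tested.

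The second ccnb1 probe (A_15_P119610) was the only one of the 16 that was higher in mutants on both arrays. It had signals of 2517 and 2344 in mutants, against 1789 and 1146 in wild type, again without overlap. Its ratios on the log2 scale were 0.49 and 1.03, averaging 0.76 ± 0.38 (SD, n = 2) with a 95% interval of 0.27 to 1.25, which puts mutants at 170% of wild type. By the software's test within an array, which does not see the spread between arrays, it was higher at a p under 0.01 on both arrays, as were 0.508% of all probes tested. The file annotates it to the cDNA record BC045492, whose description names cyclin B1, and not to the RefSeq record of the other ccnb1 probes.

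The third ccnb1 probe (A_15_P101325, record NM_131513) was the dimmest and was split. Its signals were 904 and 302 in mutants, against 1165 and 293 in wild type, and the log2 ratios of -0.37 and 0.04 lay on either side of 0, averaging -0.16 ± 0.29 (SD, n = 2). The means of the 3 probes thus spanned 1.19 on the log2 scale. Among 2316 genes with more than 1 tested probe, the median span was 0.08, and 0.13% of them had a wider span than ccnb1. Which transcripts each probe binds was not tested.

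**Figure D2:**
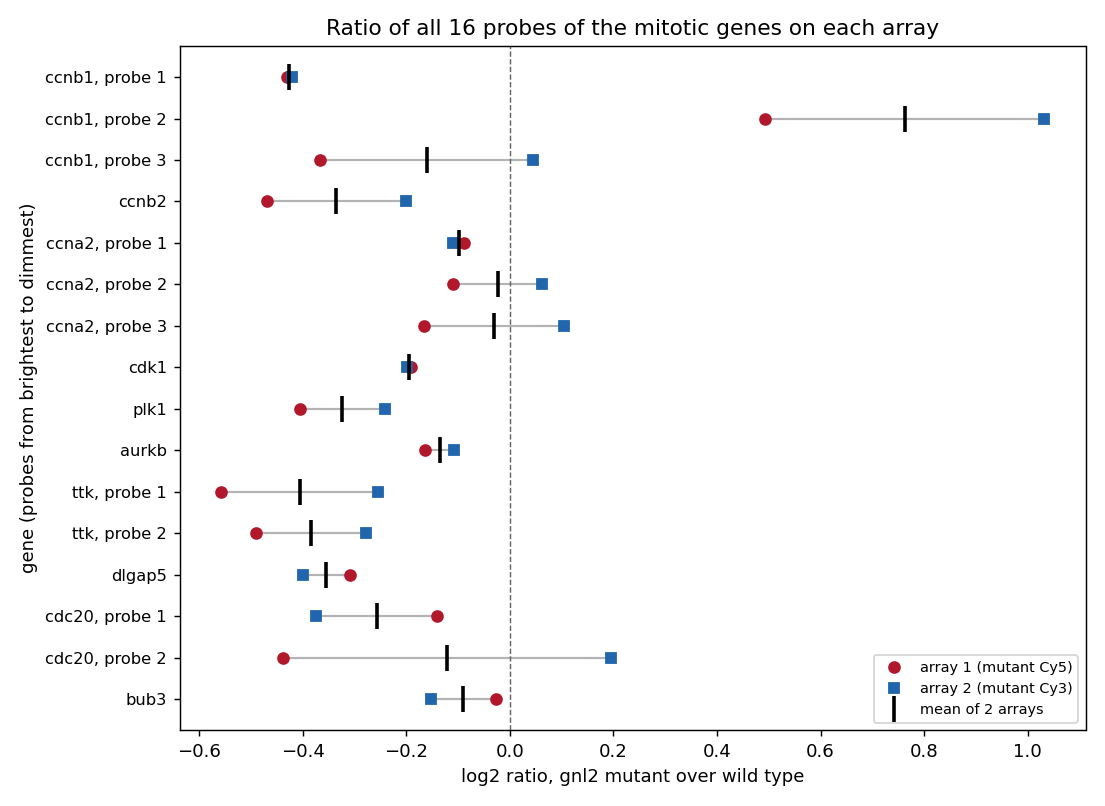
Log2 ratio of gnl2 mutant over wild type for all 16 probes, with probes of a gene ordered from brightest to dimmest. Circles are array 1, squares array 2 and bars their mean; 11 probes lie below 0 on both arrays, 4 lie on both sides of 0, and ccnb1 probe 2 lies above 0 on both, at 0.49 and 1.03.

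The second B-type cyclin gene, ccnb2, was measured by 1 probe. It had signals of 837 and 750 in mutants, against 1159 and 862 in wild type, and both mutant values lay below both wild-type values. In log2 units the ratios were -0.47 and -0.20, with a mean of -0.34 ± 0.19 (SD, n = 2) and a 95% interval of -0.66 to -0.01. The interval's upper end was close to 0, and the ratio on array 1 was the larger in size.

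Cyclin A2, encoded by ccna2, works with Cdk2 and Cdk1 from S phase until early mitosis. The brightest of its 3 probes had signals of 317 and 178 in mutants, against 337 and 192 in wild type. The genotypes overlapped, since the arrays differed more than the genotypes did. The log2 ratios of this probe were -0.09 and -0.11, with a mean of -0.10 ± 0.01 (SD, n = 2) and a 95% interval of -0.34 to 0.14. These ratios became 0.04 on array 1 and -0.09 on array 2 with median centring. The other ccna2 probes were split, with means of -0.02 ± 0.12 and -0.03 ± 0.19, and each turned above 0 under at least 1 other processing. 

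The gene cdk1 encodes the kinase itself. Its signals were 3900 and 2472 in mutants, against 4452 and 2835 in wild type. Mutant RNA was lower within each array, while the genotypes overlapped across arrays. The log2 ratios of -0.19 and -0.20 averaged -0.19 ± 0.005 (SD, n = 2), and with median centring they were 0.09 and -0.40, so the small SD depends on the normalisation. The 95% interval of -0.44 to 0.05 included 0. Its ratio was thus smaller in size than that of ccnb1 at its brightest probe and of ccnb2, though the intervals of all 3 overlapped.

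Among the other mitotic kinases, plk1 and ttk had log2 ratios below 0 that were larger in size than that of aurkb, though here too the intervals overlapped. The polo-like kinase gene plk1 had signals of 3089 and 2756 in mutants, against 4092 and 3257 in wild type. The genotypes did not overlap. Its log2 ratios were -0.41 and -0.24, with a mean of -0.32 ± 0.12 (SD, n = 2) and a 95% interval of -0.60 to -0.05.

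The gene ttk encodes the checkpoint kinase Mps1 and was the only gene here whose probes were all lower on both arrays among those with more than 1 probe. Its brighter probe had signals of 1716 and 1702 in mutants, against 2527 and 2030 in wild type. The mutant values were nearly equal and lay below both wild-type values. This corresponded to log2 ratios of -0.56 and -0.25, with a mean of -0.41 ± 0.21 (SD, n = 2) and a 95% interval of -0.75 to -0.06. The other ttk probe had log2 ratios of -0.49 and -0.28, with a mean of -0.38 ± 0.15 (SD, n = 2). The means of the probes were 0.02 apart.

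Aurora B, encoded by aurkb, is the kinase of the chromosomal passenger complex. Its signals were 6047 and 6736 in mutants, against 6771 and 7256 in wild type. The genotypes did not overlap, but the gap between them was narrow. For aurkb the log2 ratios were -0.16 and -0.11, with a mean of -0.14 ± 0.04 (SD, n = 2) and a 95% interval of -0.38 to 0.11. With median centring the ratios were 0.11 on array 1 and -0.32 on array 2.

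The microtubule-binding spindle protein gene dlgap5 had signals of 1473 and 1426 in mutants, against 1825 and 1882 in wild type. Here the values of 1 genotype were close to each other on both arrays and the genotypes stood apart. Ratios of -0.31 and -0.40 on the log2 scale averaged -0.35 ± 0.06 (SD, n = 2) with a 95% interval of -0.61 to -0.10. Mutants thus had 78.2% of the wild-type signal. With median centring the dlgap5 ratios were -0.03 and -0.59, so array 1 was almost level and the small SD depends on the normalisation.

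Cdc20 activates the anaphase-promoting complex, and its gene cdc20 was measured by 2 probes. The brighter had signals of 1029 and 1118 in mutants, against 1135 and 1448 in wild type, with a narrow gap between the genotypes. The log2 ratios were -0.14 and -0.37, with a mean of -0.26 ± 0.16 (SD, n = 2) and a 95% interval of -0.56 to 0.05. With median centring the ratios of this probe were 0.13 on array 1 and -0.56 on array 2. The dimmer probe was split at -0.44 and 0.20, with a mean of -0.12 ± 0.45 (SD, n = 2).

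The checkpoint gene bub3, whose protein binds unattached kinetochores, was measured by 1 probe. Its signals were 2264 and 1799 in mutants, against 2307 and 2000 in wild type. The genotypes overlapped, and on array 1 they were almost level. The log2 ratios were -0.03 and -0.15, with a mean of -0.09 ± 0.09 (SD, n = 2) and a 95% interval of -0.35 to 0.17. These ratios became 0.25 on array 1 and -0.35 on array 2 with median centring.

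In the order of the means at the brightest probes, ccnb1, ttk, dlgap5, ccnb2 and plk1 came first and had intervals below 0. They were followed by cdc20, cdk1, aurkb, ccna2 and bub3, whose intervals included 0. Among the ccnb1 probes only the brightest had an interval below 0, and that of the second lay above 0 (0.27 to 1.25). These intervals rest on the loess fit. Under median centring the array values lay further apart for ccnb1 (-0.15 and -0.62), plk1 (-0.12 and -0.44) and dlgap5 (-0.03 and -0.59). They lay closer together for ttk (-0.28 and -0.45) and ccnb2 (-0.21 and -0.38). Intervals under that setting are not given here. With median centring ccna2 (-0.03) rather than bub3 (-0.05) came last. Neighbours in this order differed by less than the width of their intervals. None of the 16 probes had a mean ratio of 2-fold or more in either direction.

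The direction depended on the probe. Of the 16 probes, 11 were lower on both arrays and 1 was higher, against 20% and 21.4% of all probes tested. Of the 6 further probes of genes with more than 1, only the second ttk probe was lower on both arrays, 4 were split and 1 was higher. With loess no split probe was the brightest of its gene, and the signals of split probes reached at most 1165. With median centring the brightest probes of ccna2, cdk1, aurkb, cdc20 and bub3 were split. With loess and all probes of a gene averaged, 8 of the 10 genes were lower on both arrays, the median was -0.19, and ccnb1 (0.06) and ccna2 (-0.05) were split. The share of all genes under this averaging is not given here.

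A wider list of 157 further G2 and mitosis genes was set beside them, of which 75 were on the array and 71 were tested. The list was drawn up with earlier results of these arrays known. Of the 71 genes, 26 were lower on both arrays, 9 were higher and 36 were split, against 20.3% lower and 21.2% higher among all genes tested. With median centring these counts were 21, 4 and 46, against 13.5% lower and 14.1% higher among all genes tested. Their median log2 ratio was -0.05, nearer to 0 than that of the 10 genes. At an unadjusted p under 0.05 in limma, 2 were lower and 1 was higher, against 1.22% and 1.96% of all genes tested, and 0 had an adjusted p under 0.05.

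**Figure D3:**
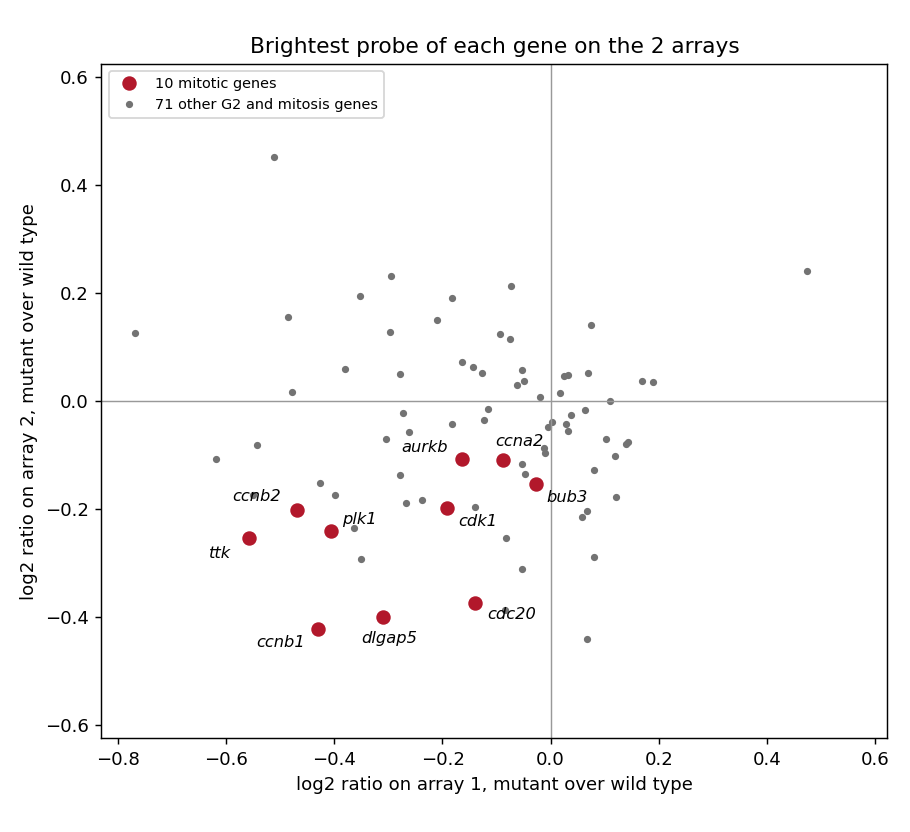
Log2 ratio of mutant over wild type on array 1 (horizontal) and array 2 (vertical) at the brightest probe of each gene, for the 10 mitotic genes (large points, named) and 71 other G2 and mitosis genes (small points). The 10 genes lie in the lower left with loess (5 of 10 with median centring), and the others spread over all quadrants, 36 of them with opposite directions.

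Within the wider list, genes of the spindle, its motors and cytokinesis were lower on both arrays in 9 of 18 cases and higher in 4. Over all genes tested, 20.3% were lower and 21.2% higher. The median of these 18 genes was -0.16 (7 lower and 1 higher with median centring, against 13.5% and 14.1% of all genes tested). The minus-end motor gene kifc1 had a mean log2 ratio of -0.36 ± 0.27 (SD, n = 2), although its other probe gave 0.18. The centrosomal gene tacc3 had -0.32 ± 0.04 and a second probe at -0.04. The midzone crosslinker gene prc1b had -0.31 ± 0.33, most of it from array 1 (-0.54) rather than array 2 (-0.08).

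The partners of Aurora B that were measured, cdca8 and birc5a, had -0.23 ± 0.06 and -0.18 ± 0.18 and were lower on both arrays, while birc5b was split. The other birc5a probe gave 0.01, and birc5a was split with median centring. All 3 of the other mitotic kinases tested were lower on both arrays, against 20.3% of all genes tested, but close to 0. They were nek2 at -0.11 ± 0.10, pbk at -0.08 ± 0.06 and the centriole duplication kinase gene plk4 at -0.03 ± 0.03. Only nek2 stayed lower on both arrays with median centring. Kinetochore genes were mostly split (7 of 11), as were all genes tested (9540 of 16296). The 3 that were lower, against 20.3% of all genes tested, were ska1 at -0.30 ± 0.09, cenpp at -0.21 ± 0.04 and mis12 at -0.16 ± 0.14. The last of these was split with median centring. Second probes lay at -0.05 for cenpp and -0.10 for mis12.

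Cyclins and regulators of Cdk1 were lower on both arrays in 2 of 7 cases, against 20.3% of all genes tested. These were ccnf at -0.36 ± 0.36 and the inhibitory kinase gene wee1 at -0.09 ± 0.06, the second of which was split with median centring. The transcription factor gene mybl2b was higher, at 0.06 ± 0.01 (split with median centring). Among 9 genes of the checkpoint and the anaphase-promoting complex, the subunit gene cdc23 had -0.17 ± 0.12 and the ubiquitin-conjugating enzyme gene ube2c -0.05 ± 0.05. In this group mad1l1 was higher, at 0.04 ± 0.01, and zw10, at -0.19 ± 0.36, was split; with median centring all 4 were split.

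Condensin and cohesin genes were lower on both arrays in 3 of 12 cases and higher in 2, against 20.3% and 21.2% of all genes tested. The condensin subunit gene smc4 had -0.29 ± 0.16 and the cohesin gene smc1al -0.24 ± 0.21 (split with median centring), whereas the condensin II gene ncapd3 had 0.36 ± 0.17. That was the largest mean above 0 in the wider list. Of 8 further genes 2 were lower, against 20.3% of all genes tested. These were g2e3 at -0.08 ± 0.05, split with median centring, and cdca3 at -0.07 ± 0.07, split with Agilent's processed signals.

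**Figure D4:**
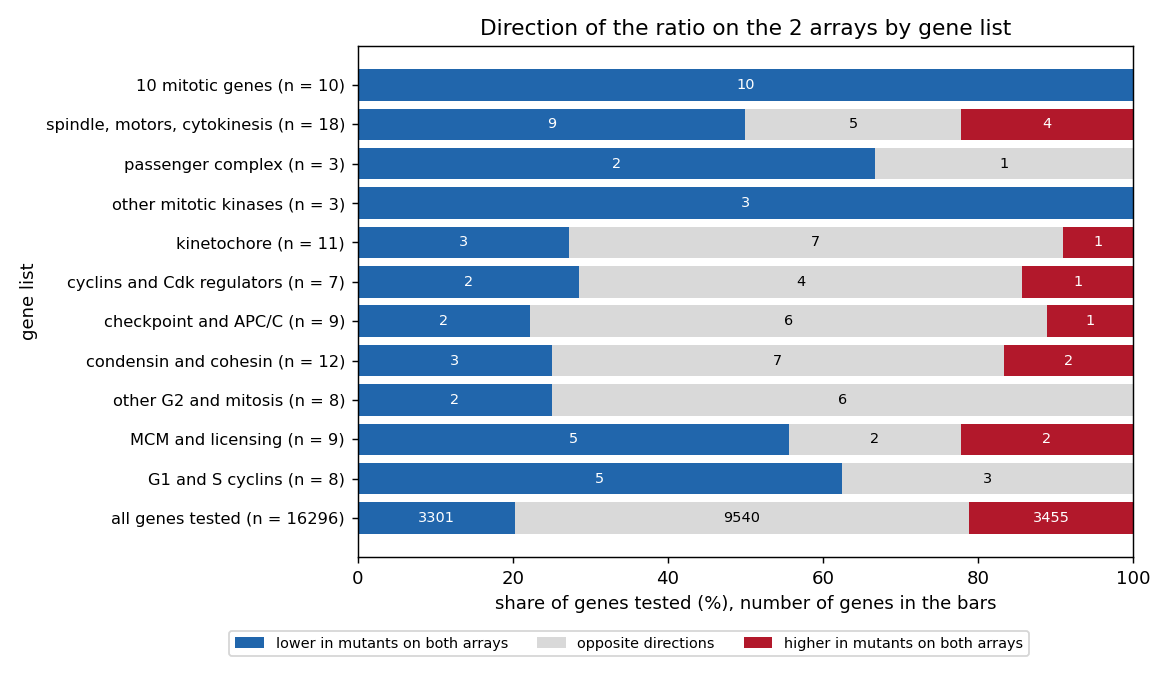
Share of tested genes (%, brightest probe) that were lower in gnl2 mutants on both arrays (blue), split between them (grey) or higher on both (red), for the 10 mitotic genes, the role groups of the wider list, 2 lists of earlier cell cycle phases and all genes tested. The blue share is 10 of 10 for the mitotic genes (5 of 10 with median centring) and 3301 of 16296 for all genes.

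The 5 genes of the wider list with the pair of array ratios nearest to the median pair of the 10 genes (-0.25 and -0.22) were cdca8, cenpp, kpna2, hmmr and kif11. Likeness was measured as Euclidean distance over the 2 arrays, and these distances lay between 0.0369 for cdca8 and 0.113 for kif11. The origin recognition gene orc5, which is not on the wider list, lay nearer, at 0.00872. The nuclear import gene kpna2 had -0.19 ± 0.003 (SD, n = 2), and the spindle motor gene kif11 -0.17 ± 0.04. Both, and hmmr, were split with median centring. The cdca8 probe was dim, with signals between 132 and 166. Its mean was -0.18 with no background subtraction and -0.38 with Agilent's processed signals. Whether it stays the nearest gene of the wider list under these settings was not tested.

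Of 58 markers of neural and other tissues, 18 were lower on both arrays and 14 higher, against 20.3% and 21.2% of all genes tested. Their median was 0.004, and 0 had an adjusted p under 0.05 in limma. At an unadjusted p under 0.05 in limma, 8 were lower and 4 higher, against 1.22% and 1.96% of all genes tested. Of the 8 lower markers, 5 were neural progenitor and eye field genes. Of 18 neural progenitor and eye field genes, 13 were lower on both arrays, 0 were higher and 5 were split. The median of these 18 genes was -0.15 (8 lower and 0 higher with median centring, against 13.5% and 14.1% of all genes tested). Their summed normalised signal was 34576 and 44720 in mutants, against 43656 and 49753 in wild type, and none of them was below the filter. The genotypes overlapped across arrays, and bright probes weigh most in such a sum. For 10 neuronal markers the median was 0.03, with 1 lower and 3 higher on both arrays. Muscle markers had a median of 0.37 (1 lower and 5 higher of 12), blood markers 0.14 (0 and 5 of 6) and notochord markers 0.10 (0 and 1 of 5). With median centring the numbers higher were 7, 3 and 3, against 14.1% of all genes tested. Of 7 epidermal markers 3 were lower and 0 higher, but 4 of the 7 were saturated, so no median is given for them. The part of tissue composition in the ratios of the mitotic genes was not tested.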

How the data were processed

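The authors deposited scanner output of Agilent Feature Extraction for both arrays. Its intensity columns hold each spot's mean pixel value and the median of its local background, per the file headers. The log10 ratio of red over green came from signals that the software had dye-normalized by LOWESS (smoothing 0.25), and its p-value tests 1 spot on 1 array, both per the file headers. A second deposited table repeats that log10 ratio, rounded, not turned for the dye swap, and with a median of 0 on both arrays. No genome build is given in the sources used here.

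Spot means were background-corrected by normexp (offset 50). Loess followed within each array (span 0.3), fitted without control spots and flagged outliers. The software was limma 3.58.1, run in R 4.3.3. Of the gene probes, 749 were dropped as outliers and 1462 as dim, meaning not well above background in either genotype on both arrays. The ratio of array 2 was turned. Log2 ratios were tested against 0 (lmFit and eBayes, both directions, 3.49 degrees of freedom in total), and Benjamini-Hochberg adjustment covered all 19284 probes. Levels per channel used Aquantile scaling. The scripts were tested on simulated data. Names followed RefSeq tables of assembly GRCz12tu, by accession for 7323 probes, symbol for 598 and synonym for 2352, and 11222 kept the file's name.

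The members and lists were chosen with earlier results of these data known. Named in the text are all members and all of their probes, gnl2, the genes of each role group with the largest means of 1 direction (up to 3) or the largest mean where split, and the 5 nearest genes; other genes named were picked after their values were seen. The alternatives were Agilent's processed signals, the deposited value table, median centring, offset 0, no background subtraction, span 0.5, other filters on dim, flagged or saturated spots, an intensity trend in eBayes, Agilent's error model, the mean over probes, and leaving out each array.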

Additional observations from a re-analysis of the deposited data

How the results depend on the processing

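Of 11 alternatives, 5 (filters and the intensity trend) leave the ratios of the members as they are and could not move their direction, and the deposited table is a rounded copy of Agilent's processed signals. Among the 5 that change the ratios, the count of 10 of 10 genes lower on both arrays was 10 with Agilent's processed signals, offset 0, no background subtraction and span 0.5, and 5 with median centring. It was 8 when the probes of a gene were averaged, a setting for which no share of all genes is given here. With median centring the genes split were ccna2, cdk1, aurkb, cdc20 and bub3, each above 0 on array 1, and the median over the 10 genes was 0.004 on array 1 and -0.42 on array 2. As mutant over wild type, the brightest 10% of all probes then had medians of 0.28 on array 1 and -0.19 on array 2. Mutant RNA was red on array 1 and green on array 2, so as red over green both medians lay above 0. The part of the dyes in the split of these genes was not tested. The median over the 10 genes was -0.25 with median centring and -0.19 with the mean over probes, and lay between -0.25 and -0.22 with 1 array left out.

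The count of 0 probes with an adjusted p under 0.05 became 38 with median centring, none of them a member, and 133 at a p under 0.01 on both arrays with Agilent's error model, which leaves out the spread between arrays. Probes at an unadjusted p under 0.05 numbered 632, and 283 with median centring. Genes of the wider list higher on both arrays numbered 4 with median centring, against 14.1% of all genes tested. On 1 array alone, 41 to 47 of the 71 genes of the wider list were lower and 24 to 30 higher. The median log2 ratio over all genes tested was 0.012 on array 1 and -0.007 on array 2. The share of all genes lower on 1 array alone is not given here. Of 80 values of member probes under these 5 alternatives, 4 changed sign. For ccna2 probe A_15_P119397 (-0.0234) the value was 0.0240 with Agilent's processed signals, 0.0239 with the deposited table and 0.0280 with median centring. For ccna2 probe A_15_P116796 it was 0.0870 with median centring and 0.0404 with offset 0. On 1 array alone these probes ranged from -0.109 to 0.0621 and from -0.17 to 0.10, the dimmer cdc20 probe from -0.44 to 0.20 and the third ccnb1 probe from -0.37 to 0.0448. The test was already paired, since the ratio within an array pairs mutant with wild type. Pairing across groups of arrays was not possible, because there is no second group to share replicate numbers.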

Other observations

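Lists of genes that act before mitosis were set beside the mitotic genes in the same way. Of 9 genes of the replicative helicase and origin licensing, 5 were lower on both arrays, 2 were higher and 2 were split. Over all genes tested, 20.3% were lower and 21.2% higher. The median log2 ratio of the 9 was -0.23 (1 lower, 0 higher and 8 split with median centring, against 13.5% lower and 14.1% higher among all genes). The helicase subunit genes mcm3, mcm7 and mcm4 had -0.34 ± 0.17, -0.33 ± 0.19 and -0.30 ± 0.27 (SD, n = 2). The mcm7 probe was saturated, so its ratio is not exact. The ratio of the subunit gene mcm5 was smaller in size than these, at -0.11 ± 0.007. Origin recognition genes differed in direction at their brightest probes. Of these, orc5 was lower on both arrays, at -0.23 ± 0.03, and orc1 was split, at -0.07 ± 0.23. The genes orc3 and orc6 were higher on both, at 0.05 ± 0.03 and 0.06 ± 0.07. A further orc5 probe lay at -0.16 and a further orc6 probe at -0.07. The largest mean in size in this list, gmnn at -0.41 ± 0.61, was split (0.02 and -0.84). The mcm3 ratio was -0.23 on array 1 and -0.46 on array 2. Among 8 G1 and S phase regulators, 5 had both array ratios below 0, 0 had both above 0 and 3 were split. Their median was -0.10 (2 genes lower and 1 higher with median centring, against 13.5% and 14.1% of all genes tested). The lowest mean was that of cdk2, at -0.24 ± 0.13. The largest mean in size was above 0, for ccnd1 at 0.29 ± 0.43, which was split (-0.02 and 0.59). The other ccnd1 probe gave 0.04. In each of these lists 0 genes had an adjusted p under 0.05 in limma, and at an unadjusted p under 0.05 there were 2 lower and 0 higher among the helicase and licensing genes and 0 and 0 among the G1 and S phase regulators, against 1.22% and 1.96% of all genes tested.

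The forkhead factor gene foxm1, known in mammals as an activator of G2 and M phase genes, was split at -0.77 and 0.13 on the log2 scale, averaging -0.32 ± 0.63 (SD, n = 2). It was lower on both arrays with median centring, and was picked after its values were seen.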
